A study of Mus musculus with 25 samples.

Results

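The muscle-type microRNAs miR-1, miR-133 and miR-206 were followed in the brain hemispheres of ageing mice. Their members were chosen by name: the hairpin precursor rows mmu-mir-1a-1, mmu-mir-1a-2, mmu-mir-133a-1, mmu-mir-133a-2, mmu-mir-133b and mmu-mir-206, written below without the species prefix. All 6 rows were found among the 1193 precursors of the count table. Small RNA was sequenced from 25 male C57BL/6 mice, 5 at each age of 2, 9, 15, 24 and 30 months, with 1 library per mouse. The labels give no treatment, transgene or altered allele for any group, so the ages differ, as far as the labels say, in age alone. Each value below is 1 library, and replicates are numbered within an age. The title of each library carries its own animal number, and nothing in the labels pairs mice across ages.

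MicroRNAs are short RNAs that guide Argonaute proteins to messenger RNAs, mostly by pairing of the seed, the bases 2 to 8 from the 5′ end. miR-1, miR-133 and miR-206 are best known from heart and skeletal muscle, where the transcription factors SRF, MEF2 and MyoD drive them. In muscle, miR-1 and miR-206 promote differentiation and miR-133 promotes the growth of myoblasts and restrains SRF. The hairpins lie in pairs: each of 3 loci holds 1 hairpin of the miR-1 and miR-206 family and 1 of the miR-133 family. In the brain these miRNAs are scarce, and miR-133b has been studied there in midbrain dopamine neurons.

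RefSeq sequences were matched for 3 of the 6 members. They are shown because the 2 families differ in their seeds, here in capitals, while the mir-1 and mir-206 hairpins share much of their 5′ arm.
miR-206-3p: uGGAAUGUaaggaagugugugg
miR-206-5p: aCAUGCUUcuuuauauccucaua
miR-1a-1-5p: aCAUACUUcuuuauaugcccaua
miR-133b-3p: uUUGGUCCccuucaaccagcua
miR-133b-5p: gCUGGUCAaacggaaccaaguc
The 5′ arms miR-1a-1-5p and miR-206-5p were identical at 20 of 23 bases. Counted from the 5′ end of miR-1a-1-5p, the differences were A5G, G17C and C19U, of which the first lies in the seed. The entries of miR-1a-3p and miR-133a were not matched. The hairpins of the Gm28653 locus follow, with both mature arms in capitals.
Mir206: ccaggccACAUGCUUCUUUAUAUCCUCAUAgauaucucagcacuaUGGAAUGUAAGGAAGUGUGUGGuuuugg
Mir133b: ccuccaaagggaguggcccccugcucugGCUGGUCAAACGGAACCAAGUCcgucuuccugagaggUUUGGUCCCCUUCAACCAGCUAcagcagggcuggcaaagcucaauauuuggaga

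In GRCm38, Mir206 lies at chr1:20679010-20679082 and Mir133b at chr1:20682769-20682887, both on the plus strand and both overlapping an exon of the long non-coding RNA Gm28653, with 3686 bases between them. Mir1a-1 lies at chr2:180389048-180389124 and Mir133a-2 at chr2:180398379-180398482, both on the plus strand, within no other annotated gene and 9254 bases apart. Mir133a-1 and Mir1a-2 lie 2504 bases apart on the minus strand of chromosome 18, in an intron of Mir133a-1hg and opposite an intron of Mib1. A further hairpin, Mir1b, spans Mir1a-2 on the opposite strand. It is no member, but its row of the table is given beside miR-1a, because the 3 rows held like numbers of reads.

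The libraries held 3779993 to 9524043 counted reads, with a median of 5608617. Of the 1193 precursors, 425 had enough reads to be tested, and these held at least 99.9856% of the reads of every library. Neuronal markers (the mir-124, mir-9 and mir-128 rows) summed to between 58847 and 79792 CPM, the read count scaled to the size of its library, and the liver marker mir-122 lay between 0.16 and 5.99 CPM. The column names place the libraries on 6 sequencing lanes, each holding at most 1 library of an age. The 5 libraries of lane 3, 1 from each age, stood apart from the other 20 on the second principal component of the tested precursors, which carried 19.9% of the variance. Values without lane 3 are given below for miR-133a and miR-1a, and for miR-133b only within the range over settings.

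miR-133a was the most abundant of these miRNAs, at a mean of 215.07 CPM over the 25 libraries with its 2 rows summed. miR-133b followed at 10.08 CPM, miR-1a at 8.01 CPM with its 2 rows summed, and miR-206 at 0.490 CPM. The ranges of miR-133b (5.57 to 14.1 CPM) and miR-1a (4.13 to 13.8 CPM) overlapped almost wholly. The order of these neighbours within libraries was not tested. It also depends on leaving out mir-1b (mean 3.92 CPM): with that row added, the mir-1 rows held 1731 reads and mir-133b 1454. miR-133a lay above all other members in every library. As single rows ranked by mean CPM among the 1193 precursors, mir-1a-2 held place 366, mir-1a-1 place 368 and mir-206 place 505. These CPM values count short reads and carry no length scaling.

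The miR-133a rows divided their reads almost evenly, and so did the mir-1 rows. Of these, mir-1b lies on the strand opposite mir-1a-2 and is no copy of it. mir-133a-1 held 50.05% of the 31351 miR-133a reads, with 48.1% to 52.6% in single libraries. Of the 1731 reads on the mir-1 rows, mir-1a-1 held 568 (32.8%), mir-1a-2 held 595 (34.4%) and mir-1b held 568 (32.8%). How reads that match several hairpins were assigned, and whether strand was used, is not given in the sources used here. A row therefore cannot be read as the output of its own locus. The rows mir-1a-1 and mir-1a-2 are therefore summed to miR-1a, and mir-133a-1 and mir-133a-2 to miR-133a, before the whole table was fitted again. The row mir-133c, a related hairpin, had 0 reads in every library.

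**Figure D1:**
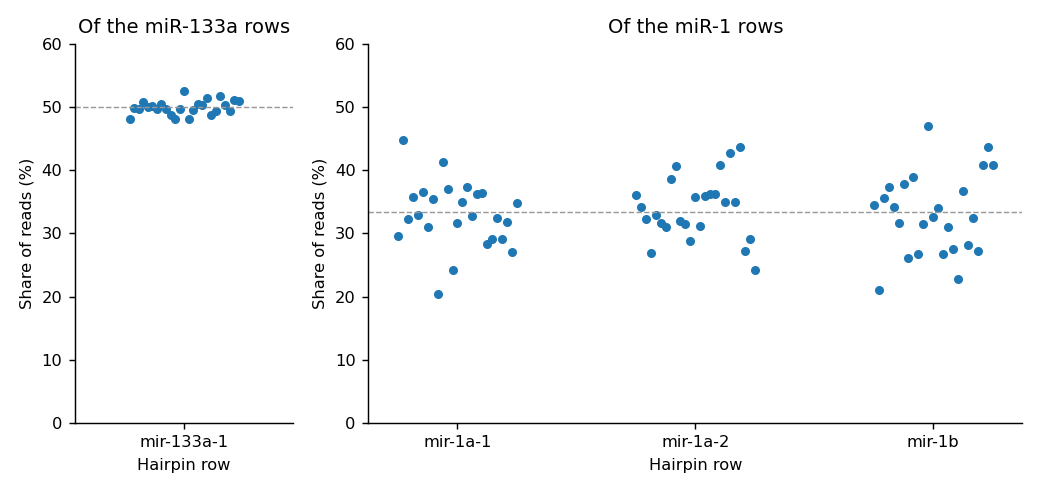
Share of reads (%, vertical axis) on each hairpin row in each of the 25 libraries (points), out of the 2 miR-133a rows (left) and of the mir-1a-1, mir-1a-2 and mir-1b rows (right); dashed lines mark equal division. mir-133a-1 stays between 48.1% and 52.6%, and the mir-1 rows scatter more, on far fewer reads.

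miR-133a was higher in old brains. At 2 months its 5 libraries held 186, 181, 192, 198 and 241 CPM, and at 30 months 253.5, 269.9, 227, 237 and 225 CPM. Only the fifth 2-month library reached into the 30-month range, where it lay above 3 of the 5 values. The means were 199.8 ± 23.9 CPM (SD, n = 5) at 2 months and 243 ± 18.9 CPM at 30 months. The log2 fold change was 0.27 (SE 0.08, 95% interval 0.10 to 0.43), or 1.20-fold, with an adjusted p of 0.0102 (edgeR's quasi-likelihood test, Benjamini-Hochberg adjustment). miR-133a is the form carried by the chromosome 2 and chromosome 18 loci.

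The means of the ages between lay in order. At 9 months the libraries held 205, 194, 209, 191 and 201 CPM (mean 200.05 ± 7.42). At 15 months they held 227, 217, 208.3, 198 and 196 CPM (mean 209 ± 13.0), and at 24 months 210, 209, 225, 233 and 239.7 CPM (mean 223.5 ± 13.8). Neighbouring ages overlapped throughout, and no step between neighbouring ages passed the test in edgeR, with 30 against 24 months at a log2 fold change of 0.11 (adjusted p 0.464). Fitted as a straight line, miR-133a gained 0.11 on the log2 scale per 12 months (SE 0.03, 95% interval 0.06 to 0.17, edgeR adjusted p 0.0027). The departure of the age means from that line had an edgeR adjusted p of 0.920. In a test for any difference among the 5 ages the edgeR adjusted p was 0.0415.

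As single rows both copies were called. mir-133a-1 rose by 0.31 on the log2 scale from 2 to 30 months (SE 0.08, edgeR adjusted p 0.00278). mir-133a-2 rose by 0.25 (SE 0.08, edgeR adjusted p 0.0116). As the reads of both rows may be the same molecules, these are not separate measurements. mir-133a-1 kept this call in all 25 fits with 1 library left out, with adjusted p up to 0.0324 in edgeR, and lost it with 2-month replicates 3 to 5 only (0.0711) and with only the 2 ages in the fit (0.0584). mir-133a-2 lost it in 5 of the 25 fits, without 2-month replicate 1 (0.0689), 2 (0.103) or 3 (0.0662) or 30-month replicate 1 (0.0638) or 2 (0.0979). mir-133a-2 also lost it under upper-quartile scaling (0.125), with 2-month replicates 3 to 5 only and with only the 2 ages in the fit (edgeR adjusted p up to 0.173). In the test for any difference mir-133a-1 lost its call in 2 of the 25 fits and mir-133a-2 in 24.

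The size of the rise rested in part on which 2-month mice were used. Their title numbers fall into 2 series, and against replicates 3 to 5 alone the log2 fold change of miR-133a was 0.17 with an edgeR adjusted p of 0.107. With only the 2 ages in the fit it was 0.25 (edgeR adjusted p 0.0728), and with upper-quartile scaling 0.22 (edgeR adjusted p 0.0556). Without lane 3 it was 0.25 (edgeR adjusted p 0.0265). Within lanes, where 1 mouse of each age could be set side by side, miR-133a was higher at 30 than at 2 months in 3 of 4 lanes, with log2 differences from -0.08 to 0.45. The slope with age stayed past the threshold under all 9 other settings tried, of which DESeq2 was one, and in edgeR with each library left out in turn. The call of any difference was lost without 2-month replicate 2 (adjusted p 0.0742), 24-month replicate 4 (0.0509), 30-month replicate 1 (0.0585) or 30-month replicate 2 (0.0745), without lane 3 (0.0832) and with lane as a covariate (0.0656), all from edgeR.

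**Figure D2:**
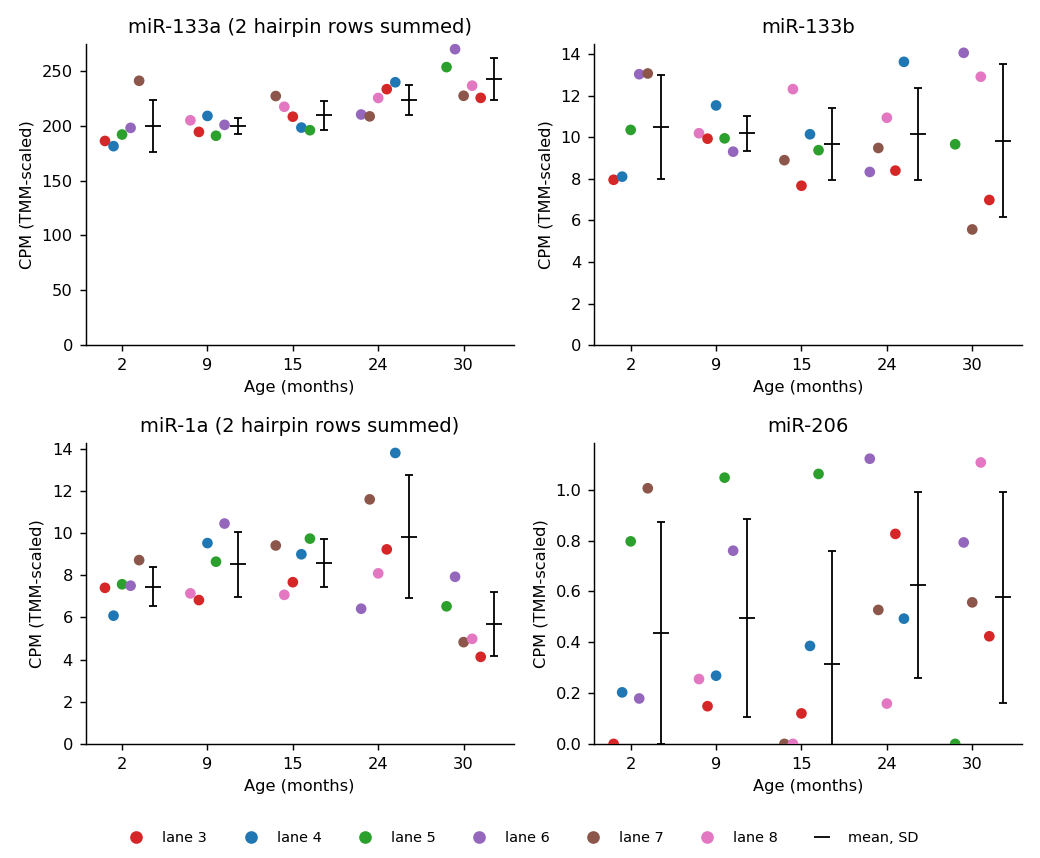
CPM (vertical axes, each from 0) of miR-133a, miR-133b, miR-1a and miR-206 by age in months, with 1 point per library coloured by lane, and the mean with SD (n = 5) at the right of each age. miR-133a moves from a mean of 199.8 at 2 months to 243 at 30 months, miR-1a is lowest at 30 months, and miR-133b stays between means of 9.69 and 10.5.

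miR-133b differs from miR-133a in its last base, and its hairpin lies in the Gm28653 locus together with that of miR-206. A read without that base would match both, so the mir-133b row may hold miR-133a reads, which was not tested. The level of the mir-133b row showed no detectable change with age. At 2 months the libraries held 7.96, 8.11, 10.4, 13.0 and 13.1 CPM, and at 30 months 9.67, 14.1, 5.57, 12.9 and 6.99 CPM. The 30-month libraries thus included both the highest and the lowest values of all 25. The means ran from 10.5 ± 2.51 CPM at 2 months through 10.2 ± 0.823, 9.69 ± 1.73 and 10.2 ± 2.21 to 9.84 ± 3.67 at 30 months (SD, n = 5 each). The log2 fold change from 2 to 30 months was -0.11 (SE 0.21, 95% interval -0.54 to 0.32, edgeR adjusted p 0.688). Over 10 other settings, the fit without lane 3 among them, it ran from -0.35 to -0.11. The lowest adjusted p from edgeR or DESeq2 was 0.265. The slope per 12 months was -0.04 (edgeR adjusted p 0.749), and the test for any difference gave an edgeR adjusted p of 0.988.

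The interval for miR-133b from 2 to 30 months holds the 0.27 measured for miR-133a, so a rise of that size is not excluded. Libraries held 30 to 86 miR-133b reads, for which counting alone gives a coefficient of variation of 12.5% to 13.4%, depending on the age. The measured coefficient of variation was 37.3% at 30 months and 8.07% at 9 months. Of all mir-133 reads, miR-133b made up 4.43%. Its share had a mean of 4.96% at 2 months and 3.84% at 30 months, with single libraries from 4.10% to 6.18% and from 2.39% to 5.18%. These ranges overlap, and the share was not tested.

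Up to 24 months the means of miR-1a and of miR-133a, whose hairpins share loci, were higher at each later age. miR-1a was then lower at 30 months than at 24 months. The 24-month libraries held 6.41, 11.6, 8.09, 9.23 and 13.8 CPM, and the 30-month libraries 6.53, 7.93, 4.83, 4.98 and 4.13 CPM. The 3 lowest of the 25 libraries were all from 30-month mice, while the other two lay within the 24-month range. The means were 9.83 ± 2.91 and 5.68 ± 1.53 CPM (SD, n = 5 each). The log2 fold change was -0.82 (SE 0.20, 95% interval -1.24 to -0.41), or 0.565-fold, with an edgeR adjusted p of 0.0128. These levels rest on 26 to 84 reads per library.

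Before 24 months the means of miR-1a were higher at each later age, without a step that passed the test. The 2-month libraries held 7.40, 6.08, 7.57, 7.50 and 8.72 CPM (mean 7.46 ± 0.935). The 9-month libraries held 7.14, 6.82, 9.53, 8.64 and 10.5 CPM (mean 8.52 ± 1.54), and the 15-month libraries 9.41, 7.07, 7.67, 8.99 and 9.74 CPM (mean 8.58 ± 1.15). From 2 to 30 months the log2 fold change was -0.43 (SE 0.21, 95% interval -0.86 to -0.0048, edgeR adjusted p 0.106). Over all tested precursors that comparison did not pass the threshold. Without 30-month replicate 2 it did, at -0.59 with an edgeR adjusted p of 0.0317. The single row mir-1a-1 lay close to the threshold. Its 2-month libraries held 3.33, 3.45, 3.79, 4.29 and 4.36 CPM and its 30-month libraries 3.14, 3.17, 2.60, 2.40 and 2.43 CPM, on 13 to 26 reads each. The ages did not overlap, but the nearest libraries, at 3.17 and 3.33 CPM, held 16 and 18 reads. Counting alone gives a coefficient of variation of 21.9% at 2 months and 25.2% at 30 months. How many of all tested precursors did not overlap was not counted. The log2 fold change of mir-1a-1 was -0.50 (SE 0.20, 95% interval -0.92 to -0.09, edgeR adjusted p 0.0536). With 1 library left out it passed the threshold in 16 of 25 fits (edgeR adjusted p from 0.0307 to 0.117). It also passed under RLE scaling (0.0459), upper-quartile scaling (0.0347), 2-month replicates 3 to 5 only (0.0463) and only the 2 ages (0.0350), and not with lane as a covariate (0.113) or without lane 3 (0.0952), all from edgeR. mir-1a-2 changed by -0.36 (SE 0.26, edgeR adjusted p 0.292), and its ages overlapped.

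The test for any difference among the ages gave miR-1a an edgeR adjusted p of 0.0231. The slope per 12 months was -0.08 (edgeR adjusted p 0.598). The departure from the line had an edgeR adjusted p of 0.0528, just short of the threshold. The call of any difference was lost without 30-month replicate 3 (adjusted p 0.0542), 4 (0.0545) or 5 (0.0671), and without lane 3 (0.0765), all from edgeR.

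The difference between 24 and 30 months held with each library left out in turn, with log2 fold changes from -0.99 to -0.66. It was -0.75 without lane 3 (edgeR adjusted p 0.0473) and -0.82 with lane as a covariate (edgeR adjusted p 0.00836). With only the 2 ages in the fit it was -0.82 with an edgeR adjusted p of 0.0609. Within lanes miR-1a was lower at 30 months in 3 of 4 lanes, with log2 differences from -1.18 to 0.29. As single rows, mir-1a-1 fell by 0.71 (SE 0.20, edgeR adjusted p 0.0241) and mir-1a-2 fell by 0.92 (SE 0.24, edgeR adjusted p 0.0205). The single rows were less stable than their sum: neither passed without 24-month replicate 5, 30-month replicate 3, 4 or 5, or lane 3, and without 24-month replicate 2 mir-1a-1 was at an edgeR adjusted p of 0.0665.

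The row mir-1b, which held as many reads as mir-1a-1 and slightly fewer than mir-1a-2, changed by -0.35 between 24 and 30 months (SE 0.24, edgeR adjusted p 0.443). Added to miR-1a, a choice made after its reads were seen, it gave a log2 fold change of -0.67 for the sum of 3 rows (SE 0.18, edgeR adjusted p 0.0236). mir-1a-1, mir-1a-2 and mir-1b thus all had lower fitted values at 30 months, of which mir-1b did not pass the test.

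**Figure D3:**
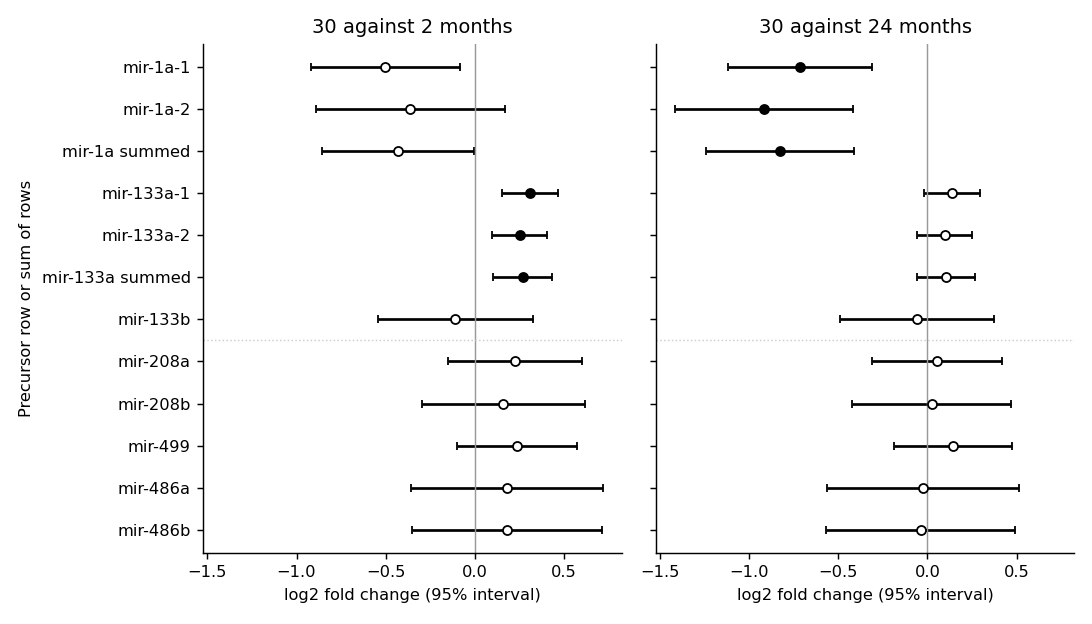
log2 fold changes (horizontal axes) with 95% intervals for 30 against 2 months (left) and 30 against 24 months (right), for the members, their sums and, below the dotted line, other muscle-enriched precursors; filled points have an edgeR adjusted p below 0.05. The miR-133a rows lie above 0 on the left and the miR-1a rows below 0 on the right, and none of the other muscle-enriched precursors is filled.

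As counts over the 5 members that could be tested, 2 (both miR-133a rows) were called higher and 0 lower at 30 than at 2 months, where 36.9% of all tested precursors were called, 19.1% as higher and 17.9% as lower. The row mir-1a-1, just short of the threshold here, was called lower in 16 of 25 fits with 1 library left out. Between 24 and 30 months 2 members (both miR-1a rows) were called lower, where 2.59% of all tested precursors were called lower, 6.12% higher and 8.71% in either direction. Each of these pairs is 1 miRNA counted on 2 rows, so with rows summed the count was 1 in each comparison. For 9 against 2 months 0 members were called, against 7.76% of all precursors, 1.88% as higher and 5.88% as lower. For 15 against 9 months 0 members and 0% of precursors were called, although 27 precursors had an unadjusted p below 0.05. For 24 against 15 months 0 members were called against 0.235%. In the test for any difference 4 members were called against 32.7% of precursors. That count ran from 1 to 4 with 1 library left out, where mir-1a-2 was lost in 14 of 25 fits and mir-133a-2 in 24, and it was 0 without lane 3. For the slope 2 members were called, both higher, against 35.5% (19.5% higher and 16% lower). For the departure from the slope 0 members were called against 7.06%. In the comparisons with 0 members called in edgeR, DESeq2 also called 0 members between neighbouring ages up to 24 months, and 0 members had an unadjusted p below 0.05 there. For the departure from the slope 2 members, the miR-1a rows, had an unadjusted p below 0.05. At 30 against 2 months the share of members called was near the background.

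The ratio of the miRNAs with shared loci, formed within each library, set the oldest mice apart. The ratio of miR-133a to miR-1a was 25.1, 29.8, 25.4, 26.4 and 27.7 at 2 months. It ran from 19.2 to 28.7 at 9 months and from 20.1 to 30.7 at 15 months. At 24 months it was 32.8, 18.0, 27.9, 25.3 and 17.4. At 30 months it was 38.9, 34.05, 47.1, 47.5 and 54.6, and every 30-month library lay above every other library. The mean ratio was 44.4 ± 8.05 (SD, n = 5) at 30 months and lay between 24.1 and 26.9 at the other ages. With mir-1b in the denominator the 30-month libraries ran from 24.8 to 32.3 and the other 20 from 12.5 to 23.6. Without lane 3 the 4 remaining 30-month libraries ran from 34.05 to 47.5, and the other 16 from 17.4 to 32.8. This ratio was formed after the values had been seen and uses the same counts as the tests above, so it is given with no test.

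**Figure D4:**
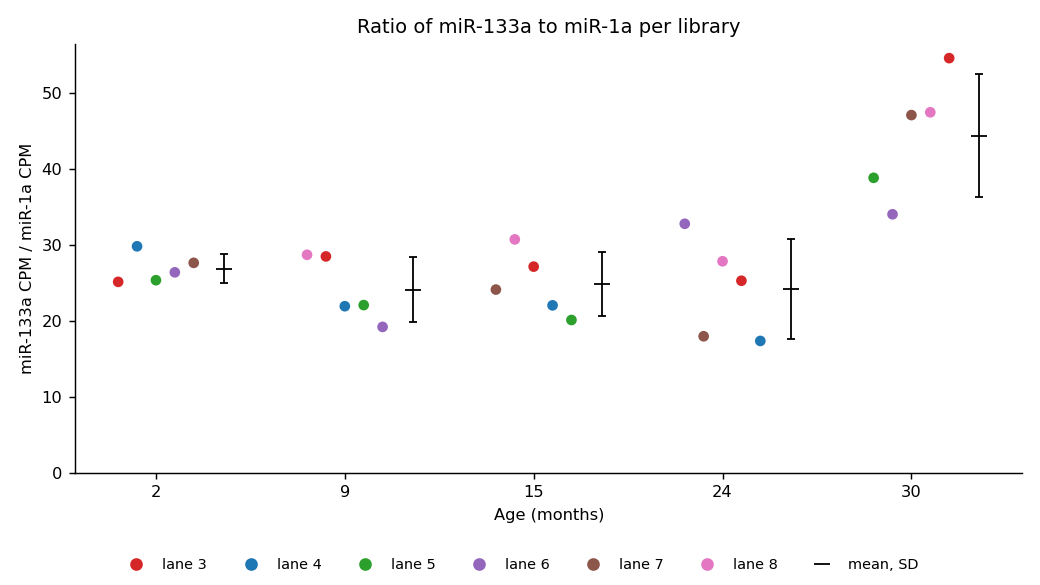
Ratio of miR-133a to miR-1a CPM (vertical axis, from 0) by age in months, with 1 point per library coloured by lane, and the mean with SD (n = 5) at the right of each age. The 30-month libraries lie between 34.05 and 54.6, and the other 20 between 17.4 and 32.8.

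miR-206, which in adult mice is largely a skeletal muscle miRNA and shares its seed with miR-1, was close to absent. Its row held 71 reads in all 25 libraries together. The counts were 0, 1, 4, 1 and 6 reads at 2 months, 1, 1, 2, 4 and 4 at 9 months, 0, 0, 1, 3 and 6 at 15 months, 7, 3, 1, 6 and 3 at 24 months and 0, 4, 3, 6 and 4 at 30 months. No library had more than 7 reads or 1.12 CPM, and 4 libraries had 0. A count of 0 allows up to 3 reads, or 0.318 to 0.786 CPM depending on the library, by counting error alone. The age totals were 12, 12, 10, 20 and 17 reads from youngest to oldest. The row was set aside by the filter on low counts. Fitted without that filter, miR-206 changed by 0.37 on the log2 scale from 2 to 30 months (SE 0.72, 95% interval -1.12 to 1.85, edgeR adjusted p 0.804), an interval wide on both sides of 0.

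Mir206 and Mir133b lie 3686 bases apart and overlap the same long non-coding RNA, yet their rows differed widely in level. The mir-133b row had 1454 reads over all libraries, some of which may be miR-133a, and miR-206 had 71. In no library did miR-206 have as many reads as miR-133b.

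Across the 25 libraries no pair of the 4 miRNAs had a correlation that passed the threshold after adjustment. Before adjustment only Pearson's r of miR-1a and miR-133b did, at a permutation p of 0.0420. On the log2(CPM + 0.5) scale miR-1a and miR-133b had Pearson's r = 0.41 and Spearman's rho = 0.29, with permutation p adjusted over the 6 pairs of 0.252 and 0.506. miR-133a and miR-133b had r = 0.29 and rho = 0.28 (adjusted permutation p 0.477 and 0.506). miR-1a and miR-133a, which share 2 loci, had r = -0.04 and rho = 0.0054 (adjusted permutation p 0.842 and 0.981). Without the 2 libraries farthest from the median of the first-named miRNA of each pair, these r were 0.19, 0.18 and -0.13. The pairs with miR-206 had r from 0.08 to 0.11, on few reads.

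Within ages the picture differed. After each age's mean was subtracted, miR-133a and miR-133b had r = 0.60 and rho = 0.62 (adjusted permutation p 0.0100 and 0.00786). miR-1a and miR-133a then had r = 0.49 (adjusted permutation p 0.0316) and miR-1a and miR-133b r = 0.48 (0.0316), while their rho values missed the threshold. Without the 2 libraries farthest from the median of the first-named miRNA of each pair, r was 0.49, 0.43 and 0.39. The adjusted permutation p were then 0.101, 0.107 and 0.107, past the threshold for no pair. Dropping the extremes of 1 miRNA narrows its range and leaves 23 libraries. This cannot tell whether the relations within ages rest on the libraries dropped. With lane subtracted as well, r was 0.70, 0.59 and 0.68. Permutation does not allow for the means that were subtracted, so these p are too small. The points of a pair share their library's depth and scaling, and the mir-133b row may hold miR-133a reads. The part of these was not tested.

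The precursors whose levels ran most like each miRNA over the 25 libraries, among those with a mean of at least 10 CPM, are given as a description. For miR-1a they were mir-135a-1 (r = 0.68), mir-135a-2 (0.67), mir-7a-2 (0.65) and mir-379 (0.65). For miR-133a they were mir-1249 (0.69), mir-338 (0.68), mir-10a (0.68) and mir-93 (0.67). For miR-133b they were mir-10b (0.69), mir-192 (0.68), mir-145a (0.60) and mir-135b (0.57). mir-145a is a miRNA of vascular smooth muscle and mir-338 one of oligodendrocytes. With age means subtracted mir-338 and miR-133a had r = 0.18, while mir-10b and miR-133b had r = 0.78. For miR-206 no precursor passed r = 0.43.

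Of the other miRNAs of striated muscle, mir-208a, mir-208b and mir-499 were present at levels near those of the single miR-1a rows, and the mir-486 rows were far more abundant. miR-208a, miR-208b and miR-499 are encoded in introns of myosin heavy chain genes, and miR-486 is abundant in both muscle and red blood cells. The guide strands of miR-208a, miR-208b and miR-499 share most of the seed, here in capitals. That seed sets them apart from miR-1, miR-133 and miR-206, and miR-486 is not shown.
miR-208a-3p: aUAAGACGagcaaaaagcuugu
miR-208b-3p: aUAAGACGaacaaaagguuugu
miR-499-5p: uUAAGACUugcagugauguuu
miR-208a-3p and miR-208b-3p were identical at 19 of 22 bases, with the differences G10A, A16G and C18U counted from the 5′ end of miR-208a-3p. The mean levels over the 25 libraries were 4.77 CPM for mir-208a, 3.39 CPM for mir-208b and 5.91 CPM for mir-499. mir-486a and mir-486b were at 1458 and 1450 CPM. These rows had near-equal means at every age and may hold the same reads, so they are not separate measurements.

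None of these 5 precursors was called by edgeR in any comparison of ages, and from 2 to 30 or 24 to 30 months 0 of 5 had an unadjusted p below 0.05. For 15 against 9 months 2 of 5 had one (lowest edgeR p 0.0255), as had 27 of all 425 tested precursors. After adjustment 36.9% of all tested precursors were called from 2 to 30 months and 8.71% from 24 to 30 months. The median log2 fold change of the 5 was 0.18 from 2 to 30 months, where the median over all tested precursors was 0.05, and 0.02 from 24 to 30 months. mir-208a had a log2 fold change of 0.23 from 2 to 30 months (SE 0.18, edgeR adjusted p 0.369). mir-499 had 0.24 (SE 0.16, 95% interval -0.10 to 0.57, edgeR adjusted p 0.279). From 24 to 30 months, where miR-1a fell, mir-499 had 0.14 (SE 0.16, 95% interval -0.19 to 0.47, edgeR adjusted p 0.670), an interval that lies above that of miR-1a. mir-208a had 0.06 (SE 0.18, 95% interval -0.31 to 0.42, edgeR adjusted p 0.929). mir-208b had 0.02 (95% interval -0.42 to 0.47), mir-486a -0.02 (-0.56 to 0.51) and mir-486b -0.04 (-0.57 to 0.49). The intervals of mir-208b and both mir-486 rows overlap that of miR-1a. The difference between these precursors and miR-1a was not itself tested.

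Markers of the other cell types that a hemisphere holds were set beside these values. In bulk RNA, fewer cells of a type and less RNA per cell cannot be told apart. Of all tested precursors, 36.9% were called from 2 to 30 months and 8.71% from 24 to 30 months. Of the vascular smooth muscle markers, mir-143 and mir-145a were tested and 0 of 2 were called by edgeR from 2 to 30 or from 24 to 30 months, also 0 at an unadjusted p below 0.05, and mir-145b had 0 reads. Their sum ranged from 21657 to 25241 CPM at 2 months, from 21109 to 24049 CPM at 24 months and from 21724 to 24442 CPM at 30 months. For the endothelial rows mir-126a and mir-126b, 0 of 2 were called in either comparison, and 0 at an unadjusted p below 0.05. The red blood cell markers mir-144 and mir-451a were called in neither comparison, with 1 of 2 at an unadjusted p below 0.05 from 2 to 30 months. Their sum varied from 305 to 1558 CPM over all libraries, and was between 378 and 508 CPM at 2 months and between 386 and 1021 CPM at 30 months.

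The oligodendrocyte rows mir-338, mir-219a-2 and mir-219a-1 moved with age: 3 of 3 were called higher at 30 months against both 2 and 24 months. Of all tested precursors, 19.1% were called higher and 17.9% lower from 2 to 30 months. From 24 to 30 months these shares were 6.12% and 2.59%. The sum of the oligodendrocyte rows was 2487 to 2913 CPM at 2 months, 2870 to 3405 CPM at 24 months and 3612 to 4554 CPM at 30 months. The 30-month libraries thus lay above all of both other ages. How many of all tested precursors did so was not counted. Of the 8 neuronal rows, 2 (both mir-128 rows) were called lower from 2 to 30 months and 0 from 24 to 30 months. The neuronal rows are copies of mir-124, mir-9 and mir-128 that may share reads, so they are not separate measurements. Of the leukocyte rows mir-142a, mir-223 and mir-150, 1 (mir-142a) was called higher and 1 (mir-150) lower from 2 to 30 months. From 24 to 30 months mir-150 alone was called, with a log2 fold change of -0.26 (SE 0.07, edgeR adjusted p 0.0261). The part of these cell types in the changes of miR-133a and miR-1a was not tested.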

How the data were processed

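Small RNA from brain hemispheres of 25 mice was prepared with the TruSeq small RNA kit, per the labels' protocols. The authors deposited 1 table of raw read counts per miRNA precursor. Tools listed in the submitters' processing notes are Trimmomatic 0.36, SAMtools 1.3.1-9 and bcl2fastq 1.8.4. The aligner, the build, the counting tool and the treatment of reads that match several hairpins remain not given in the sources used here. Such reads could be counted on several rows or divided, so rows of identical mature products were also summed. Lanes were read from the column names, and all columns were mapped to a sample by title.

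Counts were filtered with filterByExpr, scaled by TMM (factors 0.952 to 1.04) and tested in edgeR 4.0.16 (R 4.3.3) with the quasi-likelihood test and a mean per age over all 25 libraries. p-values were Benjamini-Hochberg adjusted over the 425 tested precursors, with a threshold of 0.05. SE is the log2 fold change divided by the root of F, and 95% intervals use the t distribution. CPM use TMM-scaled library sizes. Correlations used 100000 permutations, two-sided. Intervals and floors (3 counts) for single counts cover counting error only, since the reads carry no stated molecular identifiers. Replicates differed by more than sampling noise (chi-square per degree of freedom 12.5 to 189 over 50 pairs). Alternatives were RLE, upper-quartile and library-total scaling, no filter and a filter of 10 CPM in 5 libraries, lane as a covariate, no lane 3, 2-month replicates 3 to 5 only, only the ages compared, summed copies, DESeq2 1.42.0 and each library left out. Hairpin positions are from GENCODE and sequences from RefSeq, both on GRCm38.

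All 6 members were named, then the marker lists, and for each miRNA the 4 precursors of highest r. The members and lists were chosen with earlier results of these data known.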

Additional observations from a re-analysis of the deposited data

Results flagged for a closer look

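Among 45 groups of 5 libraries examined, 3 held a library far from the other 4. Chance alone flags about 1 group in 20. In 2-month replicate 5, mir-133a-2 was at 120.5 CPM, and the next highest 2-month library was at 97.5 CPM. In the same library the sum of both miR-133a rows was 241.07 CPM, with the next at 198 CPM, so these are 1 observation counted on overlapping reads. In 2-month replicate 2, mir-1b was at 1.62 CPM, and the next lowest 2-month library was at 3.89 CPM.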

How the results depend on the processing

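From 2 to 30 months, miR-133a was positive under every setting but missed the threshold with upper-quartile scaling (0.22, edgeR adjusted p 0.0556), 2-month replicates 3 to 5 only (0.17, 0.107) and only the ages compared (0.25, 0.0728). With 1 library left out it was 0.22 to 0.35. Its any-difference adjusted p was 0.0761 with upper-quartile scaling, 0.0592 with no filter, 0.0656 with lane as a covariate and 0.0832 without lane 3 (leave-one-out 0.00283 to 0.0745). For miR-1a that p was 0.0765 without lane 3 (leave-one-out 0.00647 to 0.0671). Its change from 24 to 30 months was -0.82 (edgeR adjusted p 0.0609) with only the ages compared, and from 2 to 30 months -0.59 to -0.31 over leave-one-out fits. Members called from 2 to 30 months were 2, but 3 with RLE scaling, where mir-1a-1 was added, and 1 with 2-month replicates 3 to 5 only or only the ages compared, where it was mir-1a-1, or with summed copies, where it was miR-133a (leave-one-out 1 to 3). With upper-quartile scaling the 2 were mir-133a-1 and mir-1a-1. From 24 to 30 months they were 2, but 1 with no filter or summed copies and 0 with the stricter filter, which sets both miR-1a rows aside, without lane 3 or with only the ages compared (leave-one-out 0 to 2). For any difference they were 4, but 3 with RLE scaling, library totals or lane as a covariate, 2 with upper-quartile scaling, 2-month replicates 3 to 5 only, summed copies or DESeq2, 1 with no filter or the stricter filter, and 0 without lane 3 (leave-one-out 1 to 4). For the slope they were 2, or 1 with summed copies. Precursors called from 24 to 30 months were 37, 20 with no filter and 19 with only the ages compared (leave-one-out 16 to 53). mir-1a-2 had a slope of 0.0077 with lane as a covariate and 0.019 without lane 3 (leave-one-out -0.10 to 0.042), and mir-133b changed by -0.24 to 0.066 from 24 to 30 months over leave-one-out fits. Unless given above, the cause was not tested.

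Among correlations, centring within ages gave 0.49 for miR-1a and miR-133a, 0.48 for miR-1a and miR-133b, 0.60 for miR-133a and miR-133b and -0.027 for miR-133a and miR-206. Without the 2 libraries farthest from the median of the first-named miRNA of each pair, the first was 0.43 and the last -0.38. Centring for age and lane, chosen after seeing the data, gave 0.59, 0.68, 0.70 and -0.048, and -0.035 for miR-1a and miR-206. Without lane 3, miR-133a and miR-206 had -0.065. No paired analysis was possible because the replicate numbers follow accession order and each library is a different mouse. Lane, which holds at most 1 library of an age, was fitted as a block in the lane covariate values above. Depth limits miR-1a, miR-133b and miR-206, which rest on at most 86 reads in a library.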
